A study of Mus musculus with 6 samples.

Results

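The genes described here are 10 mouse genes of long-chain and medium-chain fatty acid oxidation: Cpt1a, Cpt1b, Cpt1c, Cpt2, Slc25a20, Acadm, Acadl, Acadvl, Hadha and Hadhb. They were found by gene symbol among the 21959 genes of the deposited table, and each had 1 row. RNA was measured by sequencing of poly(A)-selected libraries, 3 per group: cells subjected to OGD/R (deprivation of oxygen and glucose, then reoxygenation), and cells subjected to OGD/R and given phillyrin. Phillyrin is a lignan glucoside of Forsythia. All cells were labelled HL-1, a line derived from mouse atrial cardiomyocytes, with a wild type genotype and 1 batch label. All were grown in Claycomb medium with norepinephrine, and OGD/R was 4 h of hypoxia in medium lacking glucose, then 24 h of reoxygenation. The phillyrin group received 50 μg/mL for 8 h beforehand and for 16 h together with OGD/R. Both groups therefore had the injury. The series holds no cells without it and none stated to have been given a vehicle. Effects of phillyrin and of any vehicle given with it therefore cannot be told apart. The labels do not state whether libraries of a group are separate cultures, so p-values measure only how these libraries scatter, and that scatter may be technical.

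Long-chain fatty acids cross the inner mitochondrial membrane as carnitine esters. A carnitine palmitoyltransferase of the CPT1 family makes the ester at the outer membrane, the carrier encoded by Slc25a20 exchanges it for free carnitine, and Cpt2 encodes the enzyme that restores the acyl-CoA in the matrix. Acyl-CoA dehydrogenases of different chain-length preference then open each round of beta-oxidation, and the trifunctional protein, built from Hadha and Hadhb subunits, carries out the remaining steps on long chains. In heart muscle this pathway supplies much of the fuel, and CPT1 is its entry step, inhibited by malonyl-CoA.

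Promoter sequences are shown for the 3 genes called lower with phillyrin, Cpt1a, Acadm and Hadhb, the last together with its divergent neighbour Hadha. RefSeq promoter windows (GRCm38.p6, 250 bases before to 50 after the start) were found for 9 of the 10 genes, all but Cpt1b. The stretches below leave out any exon of the GENCODE M21 annotation of GRCm38 and run 5′ to 3′ on the strand given. Capitals mark complete matches, read on either strand, to AGGTCA (a nuclear receptor element), AAGGTCA (the element of estrogen-related receptors, which contains the first) or GCGCATGCG (an NRF1 element).
Cpt1a, chr19:3323051-3323284, plus strand: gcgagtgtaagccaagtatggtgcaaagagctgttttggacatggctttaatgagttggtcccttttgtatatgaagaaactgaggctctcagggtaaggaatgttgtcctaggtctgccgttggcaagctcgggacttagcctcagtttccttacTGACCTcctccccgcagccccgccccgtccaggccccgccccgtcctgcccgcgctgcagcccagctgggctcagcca
Acadm, chr3:153944644-153944893, minus strand: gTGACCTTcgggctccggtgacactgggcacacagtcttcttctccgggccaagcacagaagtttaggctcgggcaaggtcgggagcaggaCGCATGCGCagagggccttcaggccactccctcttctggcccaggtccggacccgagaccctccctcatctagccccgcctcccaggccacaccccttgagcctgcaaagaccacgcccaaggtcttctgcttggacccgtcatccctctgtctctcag
Hadha and Hadhb, shared by both windows, chr5:30155163-30155230, plus strand: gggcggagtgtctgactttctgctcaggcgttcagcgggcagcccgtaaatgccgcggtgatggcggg

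AGGTCA was found in 4 of the 9 windows (Cpt1a, Cpt1c, Acadm and Acadvl) and in 16.3% of the 32851 promoter windows of the same length. In Cpt1a it lay 94 to 89 bases before the start, on the opposite strand. Acadm held AAGGTCA, found in 4.72% of all windows, 249 to 243 bases before its start, and GCGCATGCG, found in 1.75%, 159 to 151 bases before it. The CCAAT box, searched as its inverted form GATTGGC on either strand and found in 6.83% of all windows, was present in Cpt1a. It lay 20 to 14 bases before the start, where it runs into an annotated exon. GATTGGC was on the opposite strand there, so the strand of Cpt1a itself reads GCCAATC. None of these 4 letter strings occurred in the windows of Hadha and Hadhb, which share 228 bases. These are matches of letters only, and binding was not measured.

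Library totals ran from 14761317 to 22123648 counts. Mitochondrially encoded genes made up 3.18% to 3.30% of each OGD/R library and 3.49% to 4.27% of each phillyrin library, highest in phillyrin replicate 3. Of 8 cardiac muscle markers, Myh6 and Actn2 had no count in any library, which allows up to 0.0269 CPM (counts relative to the scaled library total) over all 6, and 5 others had 1 to 18 counts in all. Tnnt2, the remaining one, was abundant and was called higher with phillyrin (116 and 153 CPM, edgeR adjusted p = 5.45e-09), and the summed cardiac markers lay at 115 to 118 CPM in OGD/R and 145 to 164 CPM with phillyrin. Skeletal muscle markers summed to 1120 to 1139 CPM in OGD/R and 1087 to 1138 CPM with phillyrin. Most of this was Des, which heart muscle also expresses and which was not called (676 and 695 CPM, edgeR adjusted p = 0.377). Pax7 was low and not called (2.85 and 3.17 CPM, edgeR adjusted p = 0.623), and Myog had 45 counts in all, too few for the test. Of the 5 skeletal muscle markers tested, Myod1 was called higher (83.2 and 97.2 CPM, edgeR adjusted p = 0.000455), and Myf5 (64.2 and 52.5 CPM, edgeR adjusted p = 0.000197) and Chrna1 (305 and 271 CPM, edgeR adjusted p = 0.000479) were called lower. All cardiac markers but Tnnt2 were thus at or near 0, while Myod1, Myf5 and Chrna1 were clearly present. That pattern is at odds with the label of an atrial cardiomyocyte line. The identity of the cells was not tested, so they are called by their label only. Summed fibroblast markers lay at 2281 to 2322 CPM in OGD/R and 1797 to 1950 CPM with phillyrin, with 3 of 5 tested markers called lower and Lum at 0. Summed smooth muscle markers lay at 381 to 406 CPM and 546 to 600 CPM, nearly all of it Acta2. Summed macrophage markers stayed at or below 4.24 CPM and endothelial markers at or below 1.23 CPM, while all 4 adipocyte markers had no count and the hepatocyte markers reached 0.0541 CPM. The part of these shifts in the results below was not tested, and in RNA from whole cultures fewer cells of a type and less RNA per cell cannot be told apart.

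Phillyrin libraries held less Cpt1a, Hadhb and Acadm RNA than libraries with OGD/R alone. Of the 10 genes, 9 had enough counts to be tested, 3 were called lower, 0 were called higher and 6 were not called. A call here is a Benjamini-Hochberg adjusted p under 0.05 over all 11658 genes tested, in edgeR's quasi-likelihood test. The calls of Cpt1a and Hadhb held under all 14 alternative settings of the processing, and that of Acadm under only 9. Of all genes tested, 31.7% were called, 15.6% lower and 16% higher, so 3 calls among 9 genes is near the background. For 0 higher calls, edgeR at an unadjusted p under 0.05, DESeq2 and limma-voom each gave 0 as well. Values were negative for 7 of the 9, and for 6089 of all 11658 genes tested. The median log2 fold change of the 9 was -0.13, against -0.01 over all genes tested. The 2 groups of libraries did not overlap for 4 of the 9 genes, and for 43.1% of all genes tested.

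**Figure D1:**
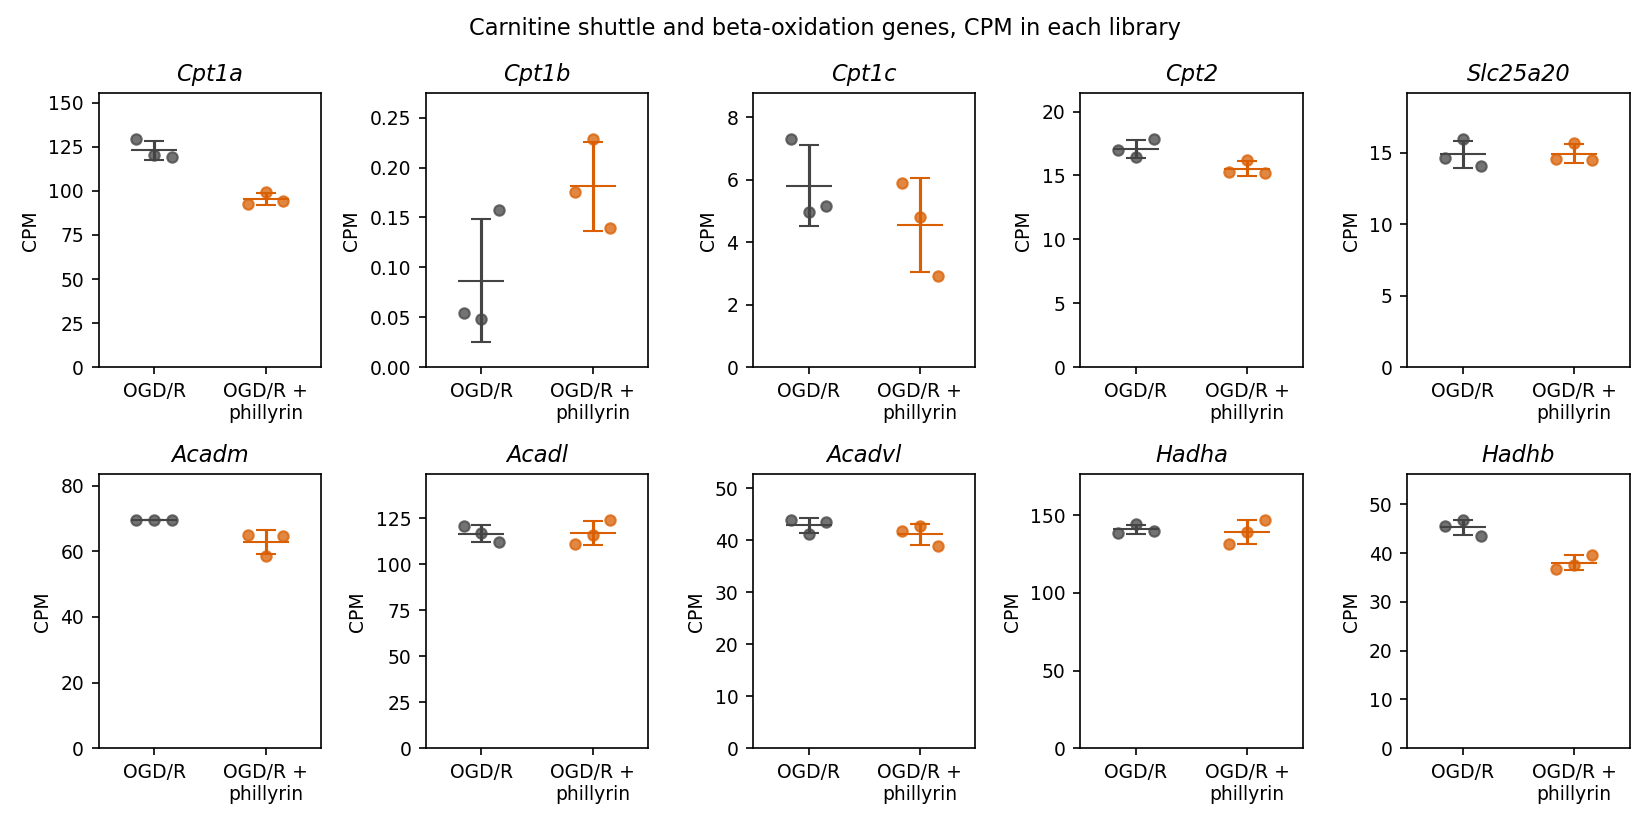
Level of each of the 10 genes in CPM scaled by TMM factors, 1 point per library, for OGD/R and OGD/R + phillyrin, with the mean and SD of 3 libraries as bars and every axis starting at 0. Cpt1a, Hadhb, Acadm and Cpt2 show no overlap between groups, and Cpt1b lies under 0.3 CPM in all 6 libraries.

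Cpt1a (ENSMUSG00000024900, chr19:3372334-3435733 in the table's build, GRCm39, plus strand) encodes the liver-type CPT1, the form that prevails outside muscle. It was at 129, 121 and 119 CPM with OGD/R and at 92.8, 99.3 and 94.1 CPM with phillyrin. Every phillyrin library lay below every OGD/R library. The mean was 123 ± 5.60 CPM (SD, n = 3) with OGD/R and 95.4 ± 3.42 CPM (SD, n = 3) with phillyrin, and the level fell by 22.3%. The change was -0.36 on the log2 scale (SE 0.05, edgeR adjusted p = 9.56e-08), a fold of 0.777 with a 95% interval of 0.727 to 0.830. Cpt1a had the largest fall and the smallest p of the 9 tested genes, and it was called under all 14 alternative settings, with log2 fold changes of -0.41 to -0.33.

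Cpt1b (ENSMUSG00000078937, chr15:89300608-89310066, minus strand), the muscle-type CPT1 that prevails in the adult heart, had 1, 1 and 3 counts with OGD/R and 3, 5 and 2 with phillyrin. These 15 counts were too few for the test, so no change can be stated. The gene lies wholly inside Gm44502 on the same strand (9459 bases), a gene listed with 0 counts in every library, and 81.4% of its exon bases are shared with it in GENCODE M21. How the authors' counting treated reads that fall in 2 genes is not given in the sources used here, so these counts cannot be read as the level of Cpt1b RNA.

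Cpt1c (ENSMUSG00000007783, chr7:44608796-44624275, minus strand), a form best known from neurons and found at the endoplasmic reticulum, was at 7.30, 4.97 and 5.16 CPM with OGD/R and 5.91, 4.80 and 2.92 CPM with phillyrin. The groups overlapped, with OGD/R replicate 1 highest and phillyrin replicate 3 lowest. The fold was 0.797 with a 95% interval of 0.608 to 1.04 (log2 -0.33, SE 0.19, edgeR adjusted p = 0.199). Single libraries moved this value: it was -0.14 on the log2 scale without OGD/R replicate 1, -0.12 without phillyrin replicate 3 and -0.53 without phillyrin replicate 1, with no call in any of these (edgeR adjusted p from 0.0565 to 0.691). Counting error alone reached 15.4% in a library, and the interval holds both no change and a fall of the size seen for Cpt1a.

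Cpt2 (ENSMUSG00000028607, chr4:107761178-107780807, minus strand) was at 17.0, 16.4 and 17.8 CPM with OGD/R and 15.3, 16.2 and 15.2 CPM with phillyrin. The groups did not overlap, by a narrow margin, yet the change did not pass the test (fold 0.913, 95% interval 0.800 to 1.04, edgeR adjusted p = 0.301). Slc25a20 (ENSMUSG00000032602, chr9:108539287-108561840, plus strand), the carnitine-acylcarnitine carrier, was at 14.7, 16.0 and 14.1 CPM and at 14.6, 15.7 and 14.5 CPM. Its groups overlapped almost fully, and its fold was 1.00 with a 95% interval of 0.874 to 1.15 (edgeR adjusted p = 0.970).

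Within a library, Cpt1a had 7.62, 7.35 and 6.67 reads per Cpt2 read with OGD/R and 6.08, 6.14 and 6.20 with phillyrin. This ratio, which does not depend on scaling between libraries, was 7.21 ± 0.488 (SD, n = 3) and 6.14 ± 0.0607 (SD, n = 3), with no overlap. The exact two-sided permutation p was 0.1, also after adjustment over the 2 ratios computed, and 0.1 is the smallest value that 3 against 3 allows. Both ratios were chosen after the values were seen.

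**Figure D2:**
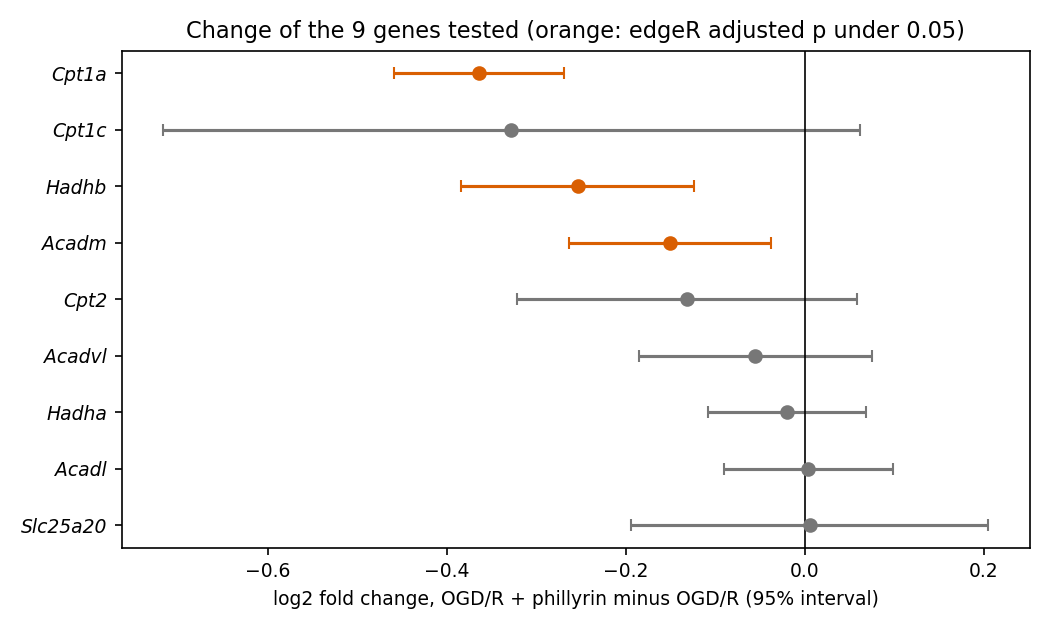
Log2 fold change of each of the 9 tested genes, OGD/R + phillyrin minus OGD/R, with its 95% interval. Orange marks Cpt1a, Hadhb and Acadm, the 3 genes with an edgeR adjusted p under 0.05. The interval of Cpt1c, from -0.72 to 0.06, is the widest.

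Among the acyl-CoA dehydrogenases, the medium-chain enzyme Acadm (ENSMUSG00000062908, chr3:153627994-153650269, minus strand) was called lower. It was at 69.5 CPM in each of the 3 OGD/R libraries and at 64.9, 58.5 and 64.8 CPM in the phillyrin libraries. The groups did not overlap, and phillyrin replicate 2 was lowest. The mean went from 69.5 ± 0.00648 CPM (SD, n = 3) to 62.7 ± 3.65 CPM (SD, n = 3), a change of -0.15 on the log2 scale (SE 0.06, edgeR adjusted p = 0.0349) and a fold of 0.901 with a 95% interval of 0.833 to 0.974. That SD in OGD/R is smaller than counting error alone, which was 2.64% to 2.79% of each value. DESeq2 did not call it (adjusted p = 0.0847), nor did edgeR when OGD/R replicate 1, 2 or 3 was left out (adjusted p = 0.0790, 0.0906 and 0.0904). It was also lost without phillyrin replicate 2, where the log2 fold change was -0.09 (edgeR adjusted p = 0.246).

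Acadl (ENSMUSG00000026003, chr1:66869998-66902436, minus strand), the long-chain enzyme, was at 121, 117 and 112 CPM with OGD/R and 111, 116 and 124 CPM with phillyrin. Its groups overlapped fully, and the fold of 1.00 had a 95% interval of 0.939 to 1.07 (edgeR adjusted p = 0.957). Acadvl (ENSMUSG00000018574, chr11:69901009-69906237, minus strand), the very-long-chain enzyme of the inner membrane, was at 43.9, 41.2 and 43.6 CPM and at 41.8, 42.8 and 38.9 CPM. Its groups overlapped too, with a fold of 0.963 and a 95% interval of 0.879 to 1.05 (edgeR adjusted p = 0.555). Of its exon bases 42.9% are shared with Dvl2 on the opposite strand, and without a stated strand setting reads of the 2 genes cannot be told apart. Dvl2 itself was called lower, from 44.9 ± 1.10 CPM (SD, n = 3) to 37.3 ± 2.06 CPM (SD, n = 3), or by -0.26 on the log2 scale (SE 0.06, edgeR adjusted p = 0.00182).

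Of the subunits of the trifunctional protein, Hadhb was called lower and Hadha was not. Hadha (ENSMUSG00000025745, chr5:30323302-30360160, minus strand) encodes the alpha subunit, with the hydratase and dehydrogenase activities. It was at 139, 144 and 139.8 CPM with OGD/R and 131, 139 and 147 CPM with phillyrin. The groups overlapped, and the fold was 0.987 with a 95% interval of 0.928 to 1.05 (edgeR adjusted p = 0.770). Hadhb (ENSMUSG00000059447, chr5:30360246-30389591, plus strand) encodes the beta subunit, the thiolase. It was at 45.5, 46.8 and 43.6 CPM with OGD/R and 36.8, 37.6 and 39.7 CPM with phillyrin, and every phillyrin library lay below every OGD/R library. The mean went from 45.3 ± 1.60 CPM (SD, n = 3) to 38.0 ± 1.47 CPM (SD, n = 3), and the level fell by 16.1% (log2 fold change -0.25, SE 0.06, edgeR adjusted p = 0.00220). Its 95% interval in fold was 0.766 to 0.918, and it was called under all 14 alternative settings, with adjusted p from 0.000531 to 0.0227.

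The difference between the subunits was measured within each library. Hadhb had 32.8, 32.4 and 31.2 reads per 100 Hadha reads with OGD/R and 28.0, 27.1 and 27.0 with phillyrin. The means were 32.1 ± 0.844 (SD, n = 3) and 27.4 ± 0.566 (SD, n = 3), a difference of -4.78 reads with no overlap between groups. The exact two-sided permutation p was 0.1, again the smallest that 3 against 3 allows. In the deposited table the genes lie 85 bases apart and are read away from each other, and the 68 bases printed above come from the interval between their starts.

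**Figure D3:**
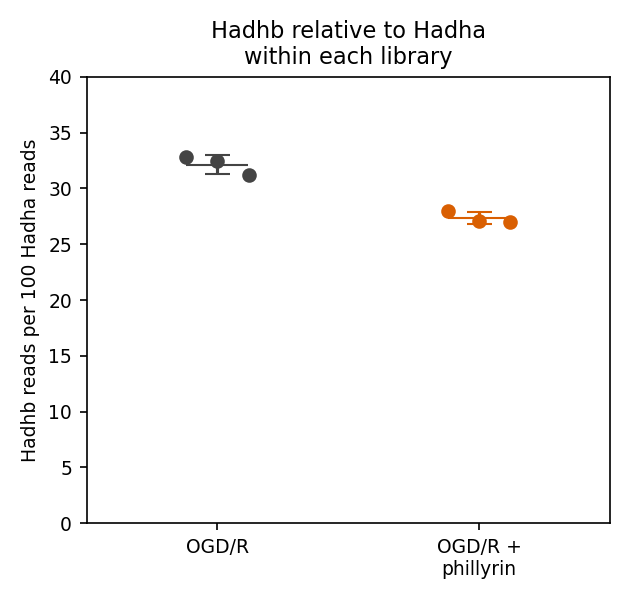
Hadhb reads per 100 Hadha reads in each of the 6 libraries, for OGD/R and OGD/R + phillyrin, with the mean and SD of 3 libraries. The OGD/R libraries lie between 31.2 and 32.8 and the phillyrin libraries between 27.0 and 28.0.

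Levels between genes were compared per length, in the deposited FPKM (counts scaled to gene length and to the library). In OGD/R libraries Acadl was highest at 59.0 ± 2.41 FPKM (SD, n = 3). Acadm followed at 18.0 ± 0.0403 FPKM, then Hadha at 16.4 ± 0.319, Cpt1a at 16.3 ± 0.779 and Acadvl at 16.2 ± 0.580 FPKM, and these last 3 did not differ beyond their spread. Cpt2 at 7.25 ± 0.301 FPKM and Hadhb at 6.97 ± 0.252 FPKM overlapped as well. Slc25a20 was at 3.12 ± 0.201 FPKM, Cpt1c at 1.05 ± 0.237 FPKM and Cpt1b at 0.0261 FPKM. With phillyrin, Cpt1a moved to 12.3 ± 0.488 FPKM (SD, n = 3), below Acadvl at 15.1 ± 0.871 FPKM with no overlap, and Hadhb at 5.68 ± 0.166 FPKM lay below Cpt2 at 6.40 ± 0.265 FPKM with no overlap.

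The length in the table equals the union of all exon bases of GENCODE M21 for 10 of the 10 genes, which for Hadhb is 6595 bases against 2048 in its principal transcript. Per kilobase of the principal transcript, a scale chosen after the data were seen, Hadhb in OGD/R libraries came to 22.4, above Acadvl at 20.1 and Cpt2 at 7.31. On that scale Hadha (35.6) and Acadm (34.4) followed Acadl (61.7), and Slc25a20 (8.49) lay above Cpt2. With phillyrin on the same scale, Cpt1a (21.8) lay above Acadvl (18.7) with no overlap, and Hadhb (18.3) lay above Cpt2 (6.45). Both are the reverse of the order that the deposited FPKM gave with phillyrin. The order within the middle of the list therefore depends on the length used, while Acadl was highest and Cpt1c and Cpt1b lowest on both scales, with the limit given above on the counts of Cpt1b.

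**Figure D4:**
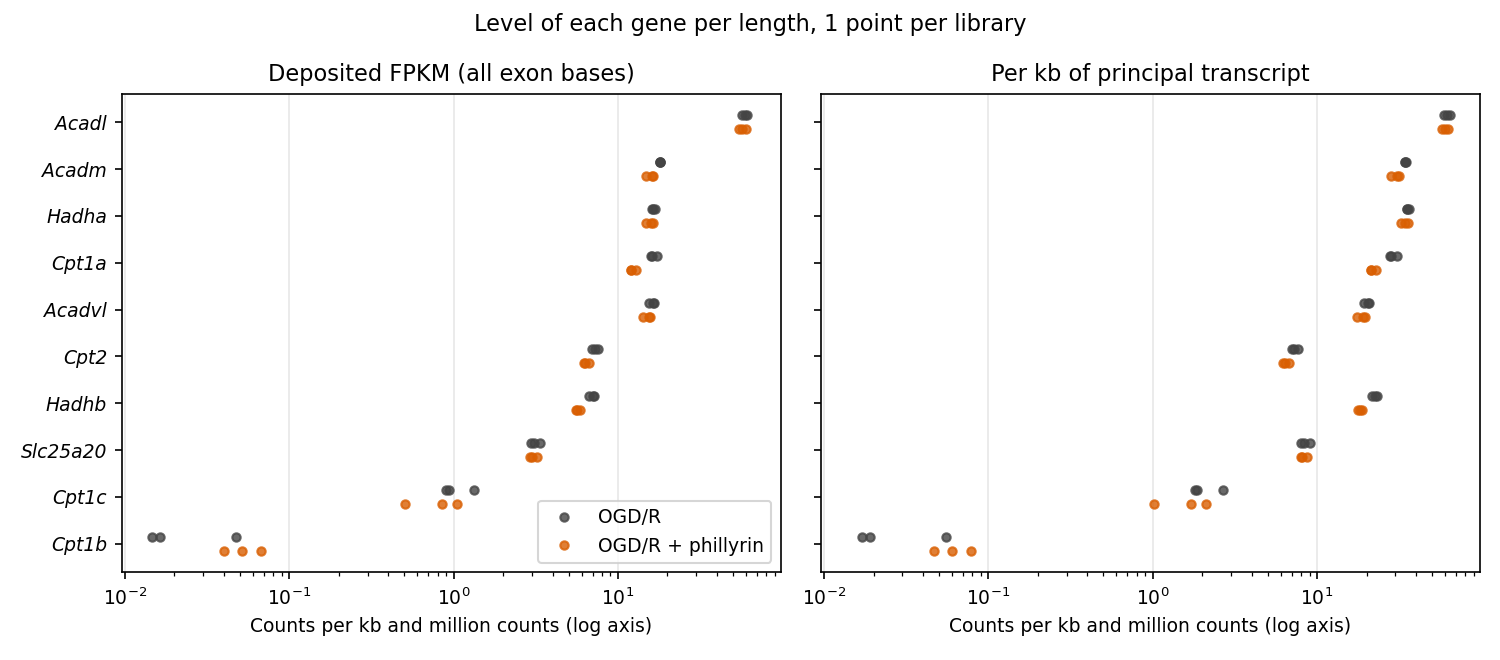
Level of each gene per length on a log axis, 1 point per library, as the deposited FPKM (left) and per kilobase of the principal transcript (right). Acadl is highest on both scales, and Hadhb moves up from near Cpt2 to near Acadvl on the second.

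The other genes of fatty acid use were read from 11 lists, 100 genes in the table. Of the 82 tested, 15 were called lower, 9 higher and 58 not at all, with a median log2 fold change of -0.06. Over all genes tested 15.6% were called lower and 16% higher, so 24 calls among 82 genes is near the background of 31.7%, and the counts of the smaller lists below are to be read against the same shares. With library size alone as scaling, the split was 20 lower and 5 higher, and over all genes it went from 1823 lower and 1871 higher to 2455 and 1313, as the median over all genes moved from -0.01 to -0.06. DESeq2 called 9 of the 82 lower and 8 higher. Without OGD/R replicate 2, 14 were called in all, 8 of them lower. Without phillyrin replicate 1 or 2 also 8 were called lower, and without OGD/R replicate 3 only 5 were called higher. Of the 29 tested genes that the naming rule selected from these lists, 23 were called and 9 of those kept the call under every alternative: Prkab2, Hadh, Amacr, Acat1, Oxct1, Ncor1, Ppargc1b, Lipe and Vldlr. Of the genes named below, Prkab2, Acaca, Etfdh, Esrra and Ncor1 overlap a gene on the opposite strand in the table.

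Upstream of the shuttle, 2 of 10 tested genes of fatty acid uptake, binding and activation were called lower and 0 higher (unadjusted p under 0.05: 3 lower and 0 higher; DESeq2 0 in either direction; limma-voom 2 lower and 0 higher), with a median of -0.12. Fabp5, a fatty acid binding protein, went from 51.3 ± 0.838 to 45.4 ± 0.763 CPM (SD, n = 3; log2 fold change -0.18, edgeR adjusted p = 0.0215). Its call was lost with DESeq2 and without OGD/R replicate 2 or 3 or phillyrin replicate 1 or 2 (adjusted p from 0.0574 to 0.0855). Slc27a4, a fatty acid transporter with acyl-CoA synthetase activity, went from 33.8 ± 2.05 to 29.6 ± 0.845 CPM (SD, n = 3; log2 fold change -0.19, edgeR adjusted p = 0.0382). Its call was lost with DESeq2, with no low-count filter and without OGD/R replicate 1 or 2 or phillyrin replicate 1 or 2 (adjusted p from 0.0528 to 0.153). Cd36, the fatty acid translocase of heart and fat, had no count in any library.

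Carnitine supply and the other carnitine acyltransferases had 2 of 5 tested genes lower and 0 higher (unadjusted p under 0.05: 3 lower and 0 higher; DESeq2 0 in either direction; limma-voom 2 lower and 0 higher), with a median of -0.15. Slc22a4, an organic cation transporter related to the carnitine importer, went from 14.1 ± 0.889 to 11.6 ± 0.491 CPM (SD, n = 3; log2 fold change -0.28, edgeR adjusted p = 0.0375). Crot, the peroxisomal carnitine octanoyltransferase, went from 50.6 ± 2.30 to 45.2 ± 0.597 CPM (SD, n = 3; log2 fold change -0.16, edgeR adjusted p = 0.0402). Both calls were lost with DESeq2, with no low-count filter and without OGD/R replicate 1 or 2 or phillyrin replicate 1 or 2 (adjusted p from 0.0528 to 0.122 for Slc22a4 and 0.0621 to 0.194 for Crot), and that of Crot also without phillyrin replicate 3.

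Of the genes that set or relieve the malonyl-CoA brake on CPT1, 3 of 9 tested were lower and 0 higher (unadjusted p under 0.05: 4 lower and 1 higher; DESeq2 2 lower and 0 higher; limma-voom 3 lower and 0 higher), with a median of -0.22. All 3 encode subunits of AMP-activated protein kinase, which phosphorylates and inhibits acetyl-CoA carboxylase. The beta-2 subunit gene Prkab2 went from 42.0 ± 1.61 to 32.0 ± 3.49 CPM (SD, n = 3; log2 fold change -0.39, edgeR adjusted p = 6.25e-05). The beta-1 subunit gene Prkab1 went from 43.7 ± 0.526 to 37.4 ± 2.28 CPM (SD, n = 3; log2 fold change -0.22, edgeR adjusted p = 0.00890), a call lost without phillyrin replicate 3 (adjusted p = 0.0529). The gamma-1 subunit gene Prkag1 went from 6.98 ± 0.796 to 5.24 ± 0.997 CPM (SD, n = 3; log2 fold change -0.43, edgeR adjusted p = 0.0349). This call was lost with DESeq2 and without OGD/R replicate 1 or 2 or phillyrin replicate 1 or 2 (adjusted p from 0.0556 to 0.240), and its log2 fold change was -0.28 without phillyrin replicate 2. The other AMPK subunit genes of the list, named after their values were seen, were not called. The catalytic alpha-1 subunit gene Prkaa1, the most abundant of them, was higher in each phillyrin library than in any OGD/R library (280.3 ± 2.77 and 295 ± 2.40 CPM, SD, n = 3; log2 fold change 0.07, edgeR adjusted p = 0.113). Prkaa2 was at 1.03 and 0.588 CPM (edgeR adjusted p = 0.107) and Prkag2 at 10.6 and 8.90 CPM (edgeR adjusted p = 0.126). Acaca, the carboxylase gene expressed here, was not called (115 ± 7.32 and 120.4 ± 2.02 CPM, SD, n = 3; edgeR adjusted p = 0.280). Neither was Mlycd, the malonyl-CoA decarboxylase gene (3.33 and 3.52 CPM, edgeR adjusted p = 0.777), and Acacb had 13 counts over all libraries.

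The other mitochondrial enzymes of the spiral had 2 of 8 tested genes lower and 1 higher, with a median of -0.15. Acads, the short-chain acyl-CoA dehydrogenase gene, went from 32.4 ± 2.65 to 27.1 ± 1.79 CPM (SD, n = 3; log2 fold change -0.25, edgeR adjusted p = 0.0103). The gene missed the threshold without OGD/R replicate 3 (adjusted p = 0.115) or phillyrin replicate 1 (adjusted p = 0.0504). Acaa2, the mitochondrial thiolase gene, went from 46.7 ± 1.60 to 41.0 ± 2.54 CPM (SD, n = 3; log2 fold change -0.19, edgeR adjusted p = 0.0200). Its call was lost with DESeq2 and without OGD/R replicate 1 or 2 or phillyrin replicate 1 or 2 (adjusted p from 0.0599 to 0.0952). Hadh, the gene for the medium- and short-chain hydroxyacyl-CoA dehydrogenase, rose from 62.9 ± 0.591 to 71.9 ± 1.74 CPM (SD, n = 3; log2 fold change 0.19, edgeR adjusted p = 0.00488).

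Of the auxiliary enzymes for unsaturated chains, 1 of 4 tested was lower and 0 higher (unadjusted p under 0.05, DESeq2 and limma-voom each 1 lower and 0 higher). It was Eci1, an enoyl-CoA isomerase gene, which went from 18.9 ± 1.61 to 14.9 ± 1.63 CPM (SD, n = 3; log2 fold change -0.33, edgeR adjusted p = 0.00835). The call was lost without OGD/R replicate 3 (adjusted p = 0.0645) or phillyrin replicate 3 (adjusted p = 0.0584). The electron transfer genes that take electrons from the acyl-CoA dehydrogenases had 2 tested members and 0 calls by edgeR at either an adjusted or an unadjusted p under 0.05, by DESeq2 and by limma-voom. Etfa was at 80.7 and 77.6 CPM and Etfdh at 53.0 and 55.2 CPM.

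In peroxisomes, where very long and branched chains are shortened, 1 of 12 tested genes was lower and 2 were higher, with a median of -0.02. Amacr, the racemase gene for branched acyl-CoAs, fell from 14.0 ± 0.349 to 10.5 ± 1.74 CPM (SD, n = 3; log2 fold change -0.40, edgeR adjusted p = 0.00636). Abcd3, an importer gene (log2 fold change 0.15, edgeR adjusted p = 0.0337), lost its call with library size alone and without OGD/R replicate 1, 2 or 3 or phillyrin replicate 3 (adjusted p from 0.0665 to 0.145). Phyh, the phytanoyl-CoA hydroxylase gene (log2 fold change 0.32, edgeR adjusted p = 0.0355), lost its call with library size alone, DESeq2 and limma-voom, and without OGD/R replicate 1, 2 or 3 or phillyrin replicate 1 or 3 (adjusted p from 0.0539 to 0.148).

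Acyl-CoA thioesterases, which release free fatty acids from acyl-CoA, had 2 of 4 tested genes higher and 0 lower (unadjusted p under 0.05, DESeq2 and limma-voom each 2 higher and 0 lower), with a median of 0.17. Acot2, of the mitochondrial matrix, went from 22.7 ± 1.71 to 27.4 ± 0.694 CPM (SD, n = 3; log2 fold change 0.27, edgeR adjusted p = 0.00721), a call lost without OGD/R replicate 3 (adjusted p = 0.0699). Acot9 went from 179 ± 4.29 to 197 ± 6.48 CPM (SD, n = 3; log2 fold change 0.13, edgeR adjusted p = 0.00786), a call lost with library size alone (adjusted p = 0.0628) and when OGD/R replicate 1 was left out (adjusted p = 0.0637).

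Among ketone body enzymes and pyruvate dehydrogenase kinases, 1 of 7 tested genes was lower and 1 higher, with a median of -0.11. Acat1, the mitochondrial acetoacetyl-CoA thiolase gene, fell from 40.6 ± 0.273 to 30.1 ± 0.401 CPM (SD, n = 3; log2 fold change -0.43, edgeR adjusted p = 3.35e-06). Oxct1, which encodes the enzyme that activates acetoacetate for use as fuel, rose from 245 ± 1.38 to 273 ± 12.3 CPM (SD, n = 3; log2 fold change 0.16, edgeR adjusted p = 0.00122). Pdk4, which restrains pyruvate oxidation and is a known target of fatty acid receptors, was not called (20.2 and 18.8 CPM, edgeR adjusted p = 0.413).

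Of the transcriptional regulators, 2 of 13 tested were lower and 2 higher, with a median of -0.03. Ppargc1b, a coactivator of mitochondrial genes, fell from 4.93 ± 0.368 to 2.72 ± 0.667 CPM (SD, n = 3; log2 fold change -0.83, edgeR adjusted p = 0.00120). Sirt1, a deacetylase, went from 65.9 ± 2.53 to 57.9 ± 2.43 CPM (SD, n = 3; log2 fold change -0.19, edgeR adjusted p = 0.00976), a call lost without OGD/R replicate 2 (adjusted p = 0.0805) or phillyrin replicate 2 (adjusted p = 0.0602). The corepressor gene Ncor1 rose from 298 ± 6.81 to 338 ± 18.4 CPM (SD, n = 3; log2 fold change 0.18, edgeR adjusted p = 0.000288), and of its overlapping neighbours Ttc19 shares 12026 bases with it. The corepressor gene Nrip1, named after its values were seen, was the other higher one (59.4 and 67.4 CPM, edgeR adjusted p = 0.0124). Ppara, the fatty acid receptor that drives this pathway in liver and heart, had 1 count over all libraries and its coactivator Ppargc1a 6 counts. Esrra, an estrogen-related receptor gene, was not called (38.0 and 37.0 CPM, edgeR adjusted p = 0.817).

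Other targets of these receptors and genes of lipid stores had 1 of 8 tested genes lower and 1 higher. Lipe, the hormone-sensitive lipase gene, fell from 2.84 ± 0.136 to 1.40 ± 0.276 CPM (SD, n = 3; log2 fold change -1.04, edgeR adjusted p = 0.00206). Vldlr, a lipoprotein receptor gene, rose from 62.2 ± 1.48 to 71.3 ± 3.05 CPM (SD, n = 3; log2 fold change 0.20, edgeR adjusted p = 0.00543).

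**Figure D5:**
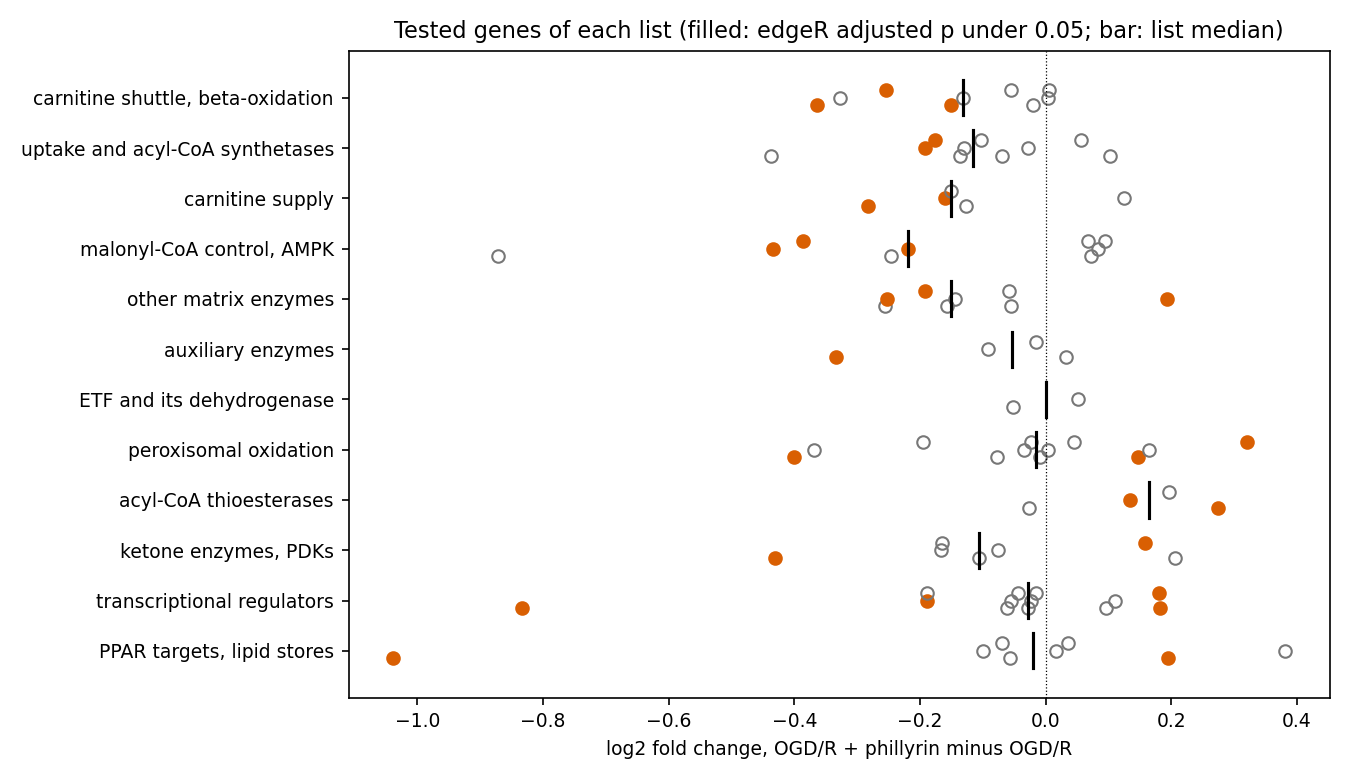
Log2 fold change, OGD/R + phillyrin minus OGD/R, of each tested gene of the 12 lists, with filled points for an edgeR adjusted p under 0.05 and a bar at each list's median. The 9 tested genes of the carnitine shuttle and beta-oxidation have 3 filled points, all below 0, and a median of -0.13.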

How the data were processed

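The series holds 6 RNA-seq libraries, read as paired ends of 150 bases on a NovaSeq, per the labels' protocols. The submitters' processing notes name Trimmomatic 0.39, HISAT2 2.2.1, featureCounts 2.0.3, DESeq2 1.34.0 and the build GRCm39. For the annotation release and the strand and overlap settings, nothing is given in the sources used here. The deposited table gives a read count and an FPKM per gene and library, per the file headers. The deposited FPKM equalled the count over gene length and library total to a relative 2.43e-07, so counts were tested. The description of every phillyrin library names the same count column, so columns were assigned by sample title instead.

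Counts were filtered with filterByExpr, scaled by TMM and tested with edgeR 4.0.16 (quasi-likelihood, robust; limma 3.58.1, R 4.3.3), two-sided, with Benjamini-Hochberg adjustment and a threshold of 0.05. The procedure was also run on counts simulated as independent libraries from this fit's own means and dispersions. That run cannot show whether the real libraries are independent. Alternatives were other scalings, DESeq2 1.42.0, limma-voom, other filters, a replicate block, leaving out mitochondrially encoded genes and leaving out each library. Rows with no symbol, at most 0.00743% of any library, stayed in. Limits for 0 counts are 3 counts and cover counting error only.

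The genes and lists were chosen with earlier results of these data known. From each list other than the 10 genes, up to 3 called genes with the smallest p were named, with Acaca, Acacb, Mlycd, Etfdh, Ppara, Ppargc1a, Ppargc1b, Esrra and Pdk4, and genes overlapping a member. An item the rule also selected is not reported here. Other genes named, such as Cd36, Etfa, Prkaa1 and Nrip1, were chosen after their values were seen.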

Additional observations from a re-analysis of the deposited data

How the results depend on the processing

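Cpt1a and Hadhb kept their direction and call under all 14 alternatives, and Acadm in 9. The number of the 10 genes called was 3, and 2 to 3 with each library left out. Over all genes 3694 were called, 3005 with DESeq2 and 2901 to 3567 with each library left out. Slc25a20, Acadl and Hadha, never called, took either sign. Of the wider genes of fatty acid use, 24 were called and 14 to 20 with each library left out, 9 higher (5 to 10) and 15 lower (8 to 13). Library size alone gave 5 higher, and DESeq2 gave 9 lower. The cause of these differences was not tested. Fits with a library left out also rest on fewer libraries, while library size alone and DESeq2 used all of them. In the order of levels per length, 6 of 9 neighbouring pairs did not overlap in OGD/R with the deposited lengths and 9 with principal transcript lengths, which differ by construction. With a replicate block, 3709 genes, 3 of the 10 genes and 24 of the wider genes were called. Same-numbered libraries correlated at 0.00278, 0.00561 and 0.00322 in their deviations from the group means, all under 0.1, so the numbers were not taken to pair the libraries, although all 6 correlated best with their own number. Cpt1b had too few counts to be tested.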

Other observations

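Etfb, the partner of Etfa in the electron transfer flavoprotein, had 33 counts over all libraries against 8885 for Etfa. It overlaps a gene of the same strand, Etfbl, over 13673 bases, though unlike Cpt1b it is not wholly inside it. Etfbl is listed with 0 counts. In GENCODE M21, 58.2% of the exon bases of Etfb are shared with other genes of the same strand. Of the 347 genes of the table that lie wholly inside another gene of the same strand, 73.5% had a mean under 1 CPM, against 49.0% of the other 21612 genes. This comparison was made after the counts of Cpt1b were seen, and its cause was not tested.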
